A study of Homo sapiens with 132 samples.

Results

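The enzymes, lectins and adhesion proteins that a mature intestinal cell makes were followed in 4 gastric cancer cell lines treated with EGF or with drugs against the epidermal growth factor receptor (EGFR) and HER2. The group held 10 genes of the 65217 gene identifiers counted: VIL1, CDH17, LGALS4, ZG16, REG4, AOC1, ANPEP, FABP1, DPP4 and SI. They were chosen by symbol, as genes that carry out intestinal differentiation, and all 10 had a row in every library. AOC1 was the gene that moved in the largest number of lines: after 24 h of afatinib it rose in NCI-N87, MKN7 and MKN1 cells, 7.46-fold in NCI-N87 cells. DPP4 rose with it in MKN7 cells, ZG16 in MKN7 and at low counts in NCI-N87 cells, LGALS4 in NCI-N87 and near the threshold in MKN7 cells, and ANPEP rose with EGF in MKN1 cells. FABP1 and SI were at or near 0 counts in all 4 lines.

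In the intestine, absorptive cells line their surface with a brush border of microvilli. Villin (VIL1) bundles the actin of the microvilli, and the membrane carries digestive enzymes such as aminopeptidase N (ANPEP), dipeptidyl peptidase 4 (DPP4) and sucrase-isomaltase (SI). Goblet cells make mucus and secrete lectins such as ZG16 and REG4, while cadherin 17 (CDH17), galectin 4 (LGALS4), the diamine-degrading enzyme AOC1 and the fatty acid carrier FABP1 are used as markers of intestinal epithelium. The stomach normally lacks most of these genes, which appear there in intestinal metaplasia and in gastric cancers with an intestinal pattern, and CDX2 is a transcription factor known to switch on many of them.

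The series held 132 poly(A) RNA libraries of 44 conditions, 3 for each condition. MKN1 and Hs746T cells were left untreated or given EGF (5 ng/ml), the anti-EGFR antibody cetuximab (1 µg/ml), EGF + cetuximab, the anti-HER2 antibody trastuzumab (5 µg/ml), the kinase inhibitor afatinib (0.5 µM), which blocks EGFR and HER2, or trastuzumab + afatinib. The NCI-N87 and MKN7 experiments had untreated cells, trastuzumab, afatinib and trastuzumab + afatinib. Each condition was taken at 4 h and at 24 h, and all cells grew in medium with serum and antibiotics, DMEM for Hs746T and RPMI for the other lines. Each line is a single established line, so a difference between lines is one between these cultures, and medium and line cannot be told apart for Hs746T. The labels number the replicates 1 to 3 without saying how they were made, so the p-values measure the spread between these libraries, which may be technical.

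Sequence upstream of the members is shown because the results turn on which of them moved together and which stayed near 0 counts. Promoter windows from RefSeq (GRCh38.p14) were matched by symbol for 7 of the 10 members, and those of VIL1, ZG16 and CDH17 are not used here. Each line gives the 250 bases before an annotated transcription start, 5′ to 3′ on the strand of the gene, and capitals mark a match to 1 of 5 searched motifs: TTTATG for the core bound by CDX factors, GTTAAT for an HNF1 site, CAAAGT for an HNF4 site, AGATAA for a GATA motif and TATAAA for a TATA box, each searched on both strands. The first 4 genes were measured well above 0 in at least 1 line, and the last 2 were not.
AOC1, chr7:150852267-150852516, plus strand: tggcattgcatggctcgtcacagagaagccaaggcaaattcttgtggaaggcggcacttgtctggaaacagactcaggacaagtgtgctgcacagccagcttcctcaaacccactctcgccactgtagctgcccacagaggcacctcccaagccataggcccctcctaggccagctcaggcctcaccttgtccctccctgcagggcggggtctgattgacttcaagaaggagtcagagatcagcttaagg
LGALS4, chr19:38812946-38813195, minus strand: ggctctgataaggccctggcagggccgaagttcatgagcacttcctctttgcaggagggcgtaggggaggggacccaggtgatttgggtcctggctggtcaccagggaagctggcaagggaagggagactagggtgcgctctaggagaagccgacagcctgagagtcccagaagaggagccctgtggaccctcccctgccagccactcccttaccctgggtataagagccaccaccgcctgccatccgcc
DPP4, chr2:162074216-162074465, minus strand: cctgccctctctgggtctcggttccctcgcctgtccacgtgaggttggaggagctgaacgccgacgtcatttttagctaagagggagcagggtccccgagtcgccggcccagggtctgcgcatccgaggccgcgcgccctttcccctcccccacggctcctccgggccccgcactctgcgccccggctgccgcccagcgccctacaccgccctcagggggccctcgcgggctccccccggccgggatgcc
ANPEP, first start, chr15:89814853-89815102, minus strand: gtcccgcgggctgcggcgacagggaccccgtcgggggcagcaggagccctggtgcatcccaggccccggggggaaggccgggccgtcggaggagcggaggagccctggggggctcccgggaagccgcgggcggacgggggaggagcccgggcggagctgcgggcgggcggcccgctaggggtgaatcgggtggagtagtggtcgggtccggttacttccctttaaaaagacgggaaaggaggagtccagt
ANPEP, second start, chr15:89806629-89806878, minus strand: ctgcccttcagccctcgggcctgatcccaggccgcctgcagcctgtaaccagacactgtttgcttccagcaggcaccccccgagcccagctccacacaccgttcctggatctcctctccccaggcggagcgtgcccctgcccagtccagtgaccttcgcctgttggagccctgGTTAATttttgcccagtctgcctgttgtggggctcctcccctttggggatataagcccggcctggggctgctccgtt
SI, chr3:165078497-165078746, minus strand: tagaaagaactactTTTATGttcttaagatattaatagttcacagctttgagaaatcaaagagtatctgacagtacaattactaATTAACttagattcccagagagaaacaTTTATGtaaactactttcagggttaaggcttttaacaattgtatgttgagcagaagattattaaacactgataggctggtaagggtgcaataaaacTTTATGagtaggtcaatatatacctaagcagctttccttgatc
FABP1, chr2:88128063-88128312, minus strand: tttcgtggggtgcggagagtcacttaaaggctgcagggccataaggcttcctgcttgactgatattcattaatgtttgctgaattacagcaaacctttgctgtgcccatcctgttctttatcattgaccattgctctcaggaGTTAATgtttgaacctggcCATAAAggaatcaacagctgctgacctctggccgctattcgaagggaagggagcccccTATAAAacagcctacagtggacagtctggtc

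The windows of AOC1, LGALS4 and DPP4 and the first ANPEP window held none of the 5 motifs. The AOC1 window lies well inside the span of the gene, chr7:150824627-150861504. The LGALS4, DPP4 and ANPEP windows also lie inside the annotated spans of their genes, and the sequence before the upstream ends of these spans was not searched. The second ANPEP window held an HNF1 site 77 bases before the start. The SI window held 3 CDX cores, 43, 139 and 236 bases before the start, and an HNF1 site on the reverse strand. The FABP1 window held a CDX core on the reverse strand, an HNF1 site and a TATA box 31 bases before the start, and the REG4 window, not printed, held a CDX core, a GATA motif and a TATA box. Among 35116 RefSeq promoter windows of this length, 9.64% held the CDX core, 6.23% the HNF1 site, 10.3% the HNF4 site, 9.17% the GATA motif and 10.7% the TATA box. Such matches describe letters in a window, and neither a match nor its absence shows what binds there.

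Library totals ran from 25832557 to 69434151 counts, with a median of 50725775. A level of 3 counts, taken as the floor of detection for counting error only, was 0.0432 to 0.116 CPM, the count scaled to the library total. Lines differed in epithelial markers: the summed level of 11 epithelial genes had a median of 18930 CPM in NCI-N87, 18250 in MKN1, 6513 in MKN7 and 888 in Hs746T libraries, and 9 mesenchymal genes summed to medians of 269, 2461, 825 and 4920 CPM in the same order. The keratins KRT8, KRT18 and KRT19 made up most of the epithelial sum in NCI-N87, MKN1 and MKN7 cells. In MKN1 cells they averaged 11150, 3021 and 4177 CPM, so the sum says little about the other epithelial genes. E-cadherin (CDH1) averaged 2.43 CPM in MKN1 and 1.01 CPM in Hs746T cells, against 263 in NCI-N87 and 239 in MKN7 cells, so 2 of the lines carry little of a defining epithelial marker. CDX2 averaged 93.3 CPM in NCI-N87, 14.3 in MKN1, 0.968 in MKN7 and 0.0573 in Hs746T libraries. In bulk RNA such as this, fewer cells of a type and less RNA per cell cannot be told apart.

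Levels of single members differed between the untreated lines. AOC1 (chr7:150824627-150861504, GRCh38), which breaks down histamine and putrescine, led in NCI-N87 cells, with a mean of 53.2 ± 11.6 CPM (SD, n = 6) over both time points. It stood at 3.33 ± 0.753 CPM in MKN7, 2.26 ± 0.734 in MKN1 and 1.67 ± 0.588 in Hs746T cells. The lowest untreated NCI-N87 library, at 42.1 CPM, lay above the highest of the other lines, at 4.38 CPM. The order below NCI-N87 was less clear, because MKN1 and Hs746T overlapped and their difference did not pass the test (log2 difference in level 0.43 ± 0.22 SE, adjusted p = 0.0751).

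The membrane peptidases ANPEP (chr15:89784889-89815401), which trims single residues from the end of peptides, and DPP4 (chr2:161992241-162074542), which removes dipeptides, led in MKN1 cells. ANPEP was at 109 ± 66.1 CPM in untreated MKN1 cells and at 0.397, 0.795 and 0.438 CPM in MKN7, NCI-N87 and Hs746T cells. In MKN1 cells the untreated libraries of 4 h and 24 h stood apart, as described later. DPP4 was at 24.0 ± 6.21 CPM in MKN1, 4.93 ± 1.8 in Hs746T, 1.76 ± 0.479 in MKN7 and 0.335 ± 0.0856 in NCI-N87 cells. Every neighbouring pair in that order differed, the closest being MKN7 and Hs746T with a log2 difference of -1.52 ± 0.226 (adjusted p = 2.02e-06). A noncoding gene antisense to DPP4 had 481 counts in all libraries beside 71483 for DPP4.

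ZG16 (chr16:29778240-29782973), a mucus lectin of goblet cells, was measurable in MKN7 cells at 1.95 ± 1.3 CPM. It was at 0.126 CPM in MKN1 and 0.0517 CPM in NCI-N87 cells, and at 0 counts in all 6 untreated Hs746T libraries, so no fold is given against Hs746T. The actin bundler VIL1 (chr2:218419092-218453295) reached 1.03 ± 0.488 CPM in NCI-N87 cells and stayed at 0.0735 CPM or below in the other 3 lines. USP37, which overlaps VIL1 on the opposite strand, had 171716 counts in all libraries against 1653 for VIL1, and whether strand was used in counting is not given in the sources used here, so the VIL1 values are uncertain. The secreted lectin REG4 (chr1:119794018-119811660) had 134 counts in all 42 MKN1 libraries together and 63 in Hs746T, 8 in NCI-N87 and 2 in MKN7 cells. FABP1 (chr2:88122982-88128116) totalled 7, 3, 32 and 12 counts in MKN1, MKN7, NCI-N87 and Hs746T libraries, and SI (chr3:164978898-165078495) 31, 5, 42 and 55.

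The intestinal cadherin CDH17 (chr8:94127171-94217303) and the apical lectin LGALS4 (chr19:38801671-38813364) were low in every line. CDH17 was at 1.49 ± 0.536 CPM in Hs746T, 1.31 ± 0.411 in MKN7, 0.445 ± 0.187 in MKN1 and 0.424 ± 0.0712 in NCI-N87 cells. The difference did not pass the test within the pair at the top (adjusted p = 0.281) or within the pair at the bottom (adjusted p = 0.921), while the pairs at the top and bottom differed, NCI-N87 being below Hs746T by a log2 difference of -1.79 ± 0.199 (adjusted p = 2.12e-08). LGALS4 ran from 0.705 ± 0.283 CPM in MKN1 cells through 0.442 ± 0.0831 in NCI-N87 and 0.352 ± 0.202 in MKN7 to 0.141 ± 0.0861 in Hs746T cells. For LGALS4 the difference between NCI-N87 and MKN7 did not pass (adjusted p = 0.155), and MKN1 was above Hs746T by a log2 difference of 2.30 ± 0.287 (adjusted p = 1.34e-07). On the scale of CPM per kilobase of merged exons, the leading member was ANPEP in MKN1 cells at 22.5, AOC1 in NCI-N87 cells at 13.9, AOC1 in MKN7 cells at 0.871 and DPP4 in Hs746T cells at 0.985.

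**Figure D1:**
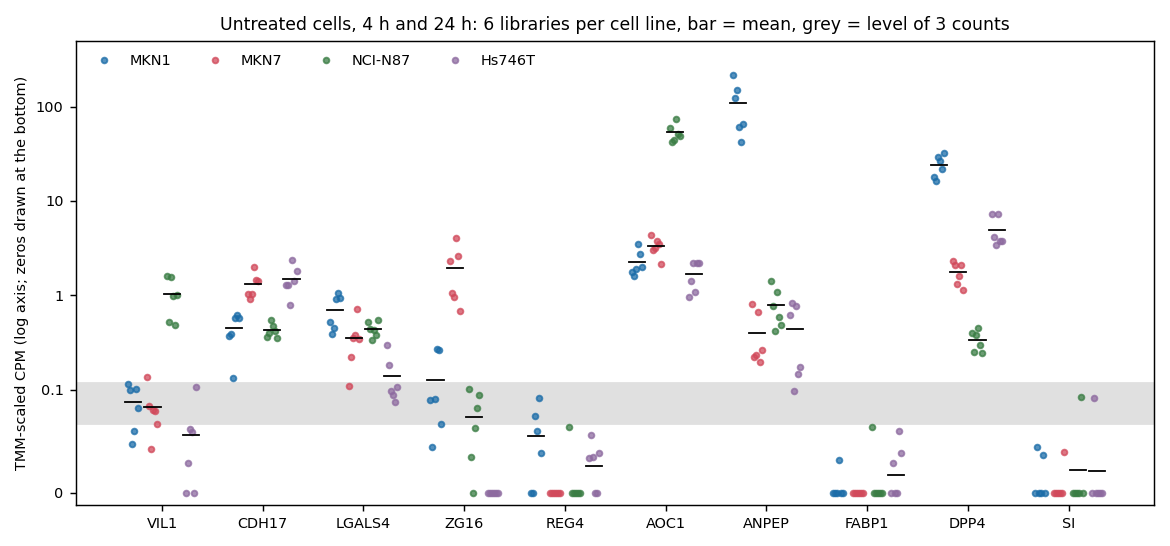
CPM of the 10 members in each untreated library by cell line (log axis, values of 0 drawn at the bottom), with bars at the means and a grey band at the level that 3 counts give. ANPEP and DPP4 stand highest in MKN1 and AOC1 in NCI-N87 cells, while REG4, FABP1 and SI lie in or under the band.

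The 6 pairs of lines were compared with edgeR over the 24 untreated libraries, in a fit in which 7 members passed the filter on low counts (all but REG4, FABP1 and SI). A member was called where its Benjamini-Hochberg adjusted p over all genes of the fit was below 0.05. Between MKN1 and MKN7 cells 6 of the 7 were called (75.8% of all genes tested), between MKN1 and NCI-N87 5 (78.7%), between MKN1 and Hs746T 5 (79.9%), between MKN7 and NCI-N87 6 (76.8%), between MKN7 and Hs746T 4 (78.2%) and between NCI-N87 and Hs746T 6 (79.6%). Most genes differed between these lines, so the members' counts were near the background. Single members differed by large amounts in level. ANPEP was higher in MKN1 than in MKN7 cells by a log2 difference of 7.96 ± 0.385, and than in NCI-N87 cells by 6.92 ± 0.353. AOC1 was higher in NCI-N87 than in Hs746T cells by 4.99 ± 0.221, and DPP4 higher in MKN1 than in NCI-N87 cells by 6.16 ± 0.278. The adjusted p was 1.18e-14 and 2.15e-14 for these ANPEP differences, 1.15e-15 for AOC1 and 2.4e-15 for DPP4. Smaller calls rested on single replicate numbers: without replicate 2, the AOC1 difference between MKN1 and MKN7 cells was not called (adjusted p = 0.133), nor that of ANPEP between MKN7 and NCI-N87 cells (0.213).

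Afatinib was compared with untreated cells within each line. The series holds no library given its solvent DMSO alone, so drug and solvent cannot be told apart here. The same limit applies where afatinib was added to trastuzumab. The fits held 7 members for MKN1 (CDH17, LGALS4, ZG16, REG4, AOC1, ANPEP and DPP4), 6 for MKN7 (the same without REG4), 7 for NCI-N87 (VIL1, CDH17, LGALS4, ZG16, AOC1, ANPEP and DPP4) and 5 for Hs746T cells (CDH17, LGALS4, AOC1, ANPEP and DPP4). FABP1 and SI passed the filter in no line.

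In NCI-N87 cells at 24 h, 3 of 7 members rose and none fell, beside 62.5% of all genes called in either direction. AOC1 read 73.4, 51.7 and 49.0 CPM in the untreated libraries and 541, 392 and 395 CPM after afatinib. The groups did not overlap, and the log2 change was 2.90 ± 0.305 (adjusted p = 3.72e-08). LGALS4, at 0.428, 0.379 and 0.552 CPM untreated, read 1.96, 1.47 and 1.44 CPM after afatinib, a log2 change of 1.81 ± 0.257 (adjusted p = 2.83e-06). ZG16 went from 2, 3 and 4 counts to 10, 23 and 8 counts, a log2 change of 1.90 ± 0.774 (adjusted p = 0.038) that rests on few counts and was not called without replicate 1 (adjusted p = 0.0927) or without replicate 2 (0.254). DPP4, ANPEP and VIL1 had log2 changes of 0.09, 0.07 and 0.20, with SEs of 0.464 to 0.513. FABP1, left out by the filter, went from 0 counts in each untreated library to 7, 1 and 4 counts after afatinib, and was called when no filter was used (adjusted p = 0.0242). With trastuzumab it had 0, 0 and 3 counts, and 3, 1 and 6 with afatinib added, which did not pass without the filter (adjusted p = 0.455). With the replicate number as a block, CDH17 was also called (log2 change 0.62 ± 0.246, adjusted p = 0.0282, range over the alternatives 0.0267 to 0.311). The share of all genes called with the block is not given here.

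In MKN7 cells at 24 h, 4 of 6 members rose and none fell, beside 51.6% of all genes called. ZG16 read 4.05, 2.63 and 0.673 CPM untreated and 27.3, 22.0 and 16.0 CPM after afatinib, a log2 change of 3.13 ± 0.477 (adjusted p = 1.42e-05). Replicate 1 was the highest and replicate 3 the lowest in both groups. DPP4 read 1.61, 2.08 and 1.13 CPM untreated and 7.90, 7.18 and 4.17 CPM after afatinib, a log2 change of 1.98 ± 0.261 (adjusted p = 2.38e-06). AOC1 read 3.73, 3.50 and 2.13 CPM and then 8.19, 8.01 and 8.55 CPM, a log2 change of 1.39 ± 0.173 (adjusted p = 1.23e-06). These 3 genes showed no overlap between groups, and the share of all genes without overlap was not computed. LGALS4 did overlap, with 0.381, 0.707 and 0.347 CPM untreated and 0.627, 1.21 and 0.736 CPM after afatinib, and its log2 change of 0.83 ± 0.345 was close to the threshold (adjusted p = 0.0482, range over the alternatives 0.00663 to 0.192). That call was lost with DESeq2 (0.0571), with no filter (0.0659), with the 2 conditions alone (0.0865) and without replicate 1 (0.107), 2 (0.0895) or 3 (0.192), each of which left 3 members called. CDH17 and ANPEP had log2 changes of 0.23 ± 0.214 and -0.28 ± 0.734.

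In MKN1 cells at 24 h, 1 of 7 members rose, beside 25.6% of all genes called. AOC1 went from 3.52, 2.75 and 2.0 CPM to 12.1, 13.6 and 16.5 CPM, a log2 change of 2.33 ± 0.244 (adjusted p = 5.03e-08). DPP4 read 26.5, 21.6 and 32.0 CPM untreated and 40.1, 34.5 and 56.4 CPM after afatinib, which did not pass the test (log2 change 0.69 ± 0.307, adjusted p = 0.0963). Replicate 3 was the highest DPP4 library in both groups. With the replicate number as a block, 3 members were called: AOC1, DPP4 with a log2 change of 0.68 ± 0.0644 (adjusted p = 7.64e-10, range over the alternatives 7.64e-10 to 0.285) and ANPEP with -0.38 ± 0.0774 (adjusted p = 0.000137, range 0.000137 to 0.805). The block called 8358 of 19815 genes in this comparison. ANPEP had read 60.8, 42.1 and 64.7 CPM untreated and 51.4, 33.7 and 44.8 CPM after afatinib, which overlap. ZG16, at 0.271, 0.261 and 0.043 CPM untreated, read 0.324, 0.530 and 0.468 CPM after afatinib, without overlap, and did not pass (log2 change 1.15 ± 0.52, adjusted p = 0.106). LGALS4 and CDH17 had log2 changes of 0.24 ± 0.237 and -0.31 ± 0.352. REG4 went from 2, 4 and 1 counts to 5, 9 and 9 counts, with a log2 change of 1.60 ± 0.947 that did not pass (adjusted p = 0.231).

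In Hs746T cells, 0 of 5 members passed the test at 24 h, and 0% of all genes were called. With the replicate block the same fit called 133 of 18667 genes at 24 h and 3471 at 4 h, and 0 members at either time. AOC1 read 1.08, 2.19 and 2.19 CPM untreated and 1.0, 2.0 and 2.72 CPM after afatinib, with replicate 1 the lowest in both groups. DPP4 showed the opposite order, with replicate 1 at 7.20 and 7.41 CPM and the other libraries at 3.77 to 4.22 CPM. Over the 18 comparisons of a treatment with untreated cells or with another treatment in this line, 0 of 90 member tests were called by edgeR, 0 by DESeq2 and 0 with the replicate block, and 2 had an unadjusted p below 0.05. At 24 h this held for EGF (0% of genes called), for cetuximab (0%) and for trastuzumab + afatinib against trastuzumab (0%).

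**Figure D2:**
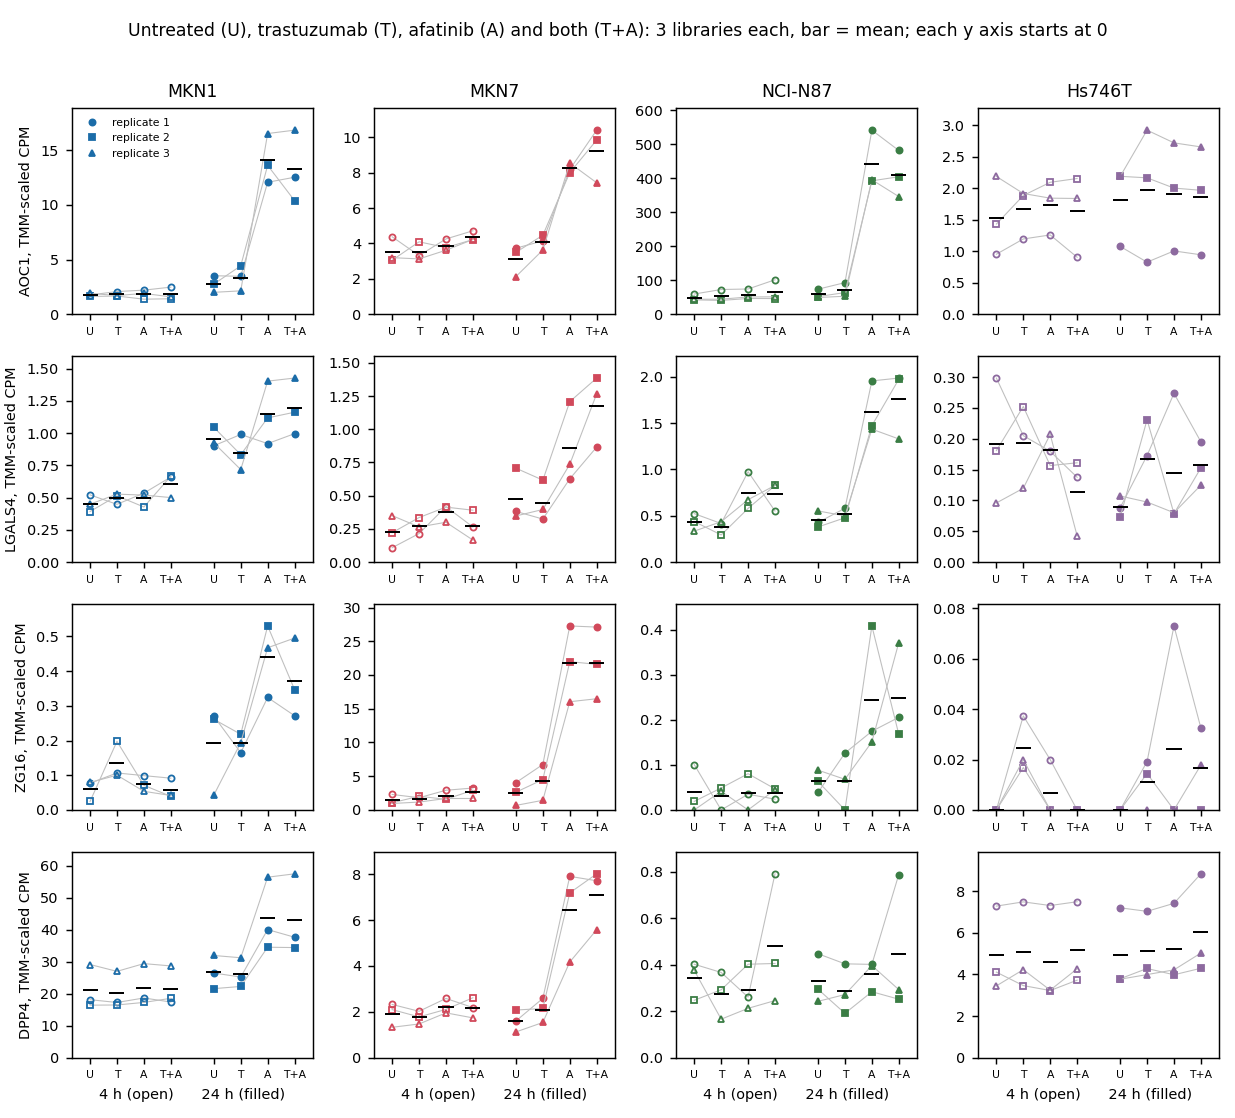
CPM of AOC1, LGALS4, ZG16 and DPP4 in every untreated (U), trastuzumab (T), afatinib (A) and trastuzumab + afatinib (T+A) library of the 4 lines, axes from 0, with open markers for 4 h and filled markers for 24 h, marker shape for the replicate number bars for means of 3 libraries and grey lines joining the same replicate number. The 24 h afatinib libraries with and without trastuzumab stand above the untreated ones for AOC1 in MKN1, MKN7 and NCI-N87, for ZG16 and DPP4 in MKN7 and for LGALS4 in NCI-N87 cells.

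Few members passed the test at 4 h. LGALS4 in NCI-N87 cells was the 1 call of afatinib against untreated cells among the 4 lines (18.2% of genes called in that line): it read 0.523, 0.438 and 0.334 CPM untreated and 0.975, 0.579 and 0.674 CPM after afatinib, a log2 change of 0.78 ± 0.266 (adjusted p = 0.0445, range over the alternatives 0.0272 to 0.217). No member passed in MKN7 (22.2% of genes), MKN1 (3.68%) or Hs746T cells (0%) by edgeR or DESeq2, and none had an unadjusted p below 0.05 there. The replicate block added ANPEP in MKN1 cells, with a log2 change of -0.24 ± 0.0748 (adjusted p = 0.0304, range 0.0304 to 0.983). AOC1 in NCI-N87 cells read 59.2, 42.1 and 43.9 CPM untreated and 74.0, 46.1 and 50.6 CPM after afatinib at 4 h, a log2 change of 0.24 ± 0.287. Adding afatinib to trastuzumab for 4 h also raised LGALS4 in NCI-N87 cells, from 0.416, 0.293 and 0.436 CPM to 0.551, 0.827 and 0.828 CPM (0.97 ± 0.274, adjusted p = 0.0143). It was the 1 call of 7 members there (19.7% of genes), and was lost with the 2 conditions alone (adjusted p = 0.0742) and without replicate 2 (0.305) or 3 (0.0821). The block added AOC1 (0.30 ± 0.0911, adjusted p = 0.013), and its share of all genes is not given here. The same comparison called 0 members by edgeR or DESeq2 in MKN7 (20.5% of genes), MKN1 (3.08%) and Hs746T cells (0%), where 0 had an unadjusted p below 0.05.

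No member passed the test after trastuzumab alone. Over 8 comparisons with untreated cells, 0 of 50 member tests were called by edgeR, 0 by DESeq2 and 0 with the replicate block, and 1 had an unadjusted p below 0.05. By edgeR without the block no gene was called at 24 h in MKN1 (0%), MKN7 (0%), NCI-N87 (0%) or Hs746T cells (0%), whereas the block called 8 genes in NCI-N87 and 62 in MKN7 cells, and DESeq2 called 1 in NCI-N87 cells. Adding afatinib to trastuzumab for 24 h tested the drug in libraries other than the untreated and afatinib ones, its controls being the trastuzumab libraries just described. AOC1 rose in NCI-N87 cells from 92.7, 63.4 and 52.6 CPM to 481, 404 and 346 CPM (log2 change 2.54 ± 0.3), in MKN1 cells from 3.46, 4.42 and 2.13 CPM to 12.5, 10.4 and 16.8 CPM (1.96 ± 0.239) and in MKN7 cells by 1.16 ± 0.17. In MKN7 cells ZG16 rose by 2.34 ± 0.454, DPP4 by 1.74 ± 0.255 and LGALS4 by 1.37 ± 0.342 on the log2 scale, and LGALS4, at 0.324, 0.617 and 0.396 CPM and then 0.866, 1.39 and 1.27 CPM, no longer overlapped between groups.

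In NCI-N87 cells LGALS4 rose by 1.74 ± 0.255 and ZG16 by 1.98 ± 0.795 on the log2 scale, the latter from 5 counts or fewer in each trastuzumab library and not called without replicate 2 (adjusted p = 0.153) or 3 (0.182). CDH17 fell by 0.94 on the log2 scale in MKN1 cells (SE 0.36, adjusted p = 0.0491), from 0.623, 0.555 and 0.775 CPM to 0.272, 0.538 and 0.218 CPM, a call lost when library size alone set the scale (adjusted p = 0.0971) and without replicate 1 (0.252) or 3 (0.434). The counts were 3 of 7 members in NCI-N87 (61.8% of all genes called), 4 of 6 in MKN7 (44.4%), 2 of 7 in MKN1 (27.9%) and 0 of 5 in Hs746T cells. In MKN1 cells, libraries of the same replicate number in the compared conditions shared little of their deviation from the condition mean across genes (correlations 0.297, -0.0245 and 0.186). The reason was not tested. With the replicate block VIL1 was also called in NCI-N87 cells (log2 change 0.57 ± 0.235, adjusted p = 0.0367) and CDH17 in MKN7 cells (0.52 ± 0.181, adjusted p = 0.017), neither of which passed without it (adjusted p = 0.369 and 0.051). The block called 10845 of 18483 genes in MKN7 cells, and its share of all genes in NCI-N87 cells is not given here.

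The size of the afatinib response at 24 h was then compared between lines, with 8 members in the fit. AOC1 rose more in NCI-N87 than in MKN7 cells, the MKN7 minus NCI-N87 difference in log2 change being -1.53 ± 0.439 (adjusted p = 0.0057). It also rose more in MKN1 than in Hs746T cells (2.24 ± 0.499, adjusted p = 0.00217) and in NCI-N87 than in Hs746T cells (2.83 ± 0.483, adjusted p = 7.51e-07). LGALS4 responded less in MKN1 than in NCI-N87 cells (-1.58 ± 0.43, adjusted p = 0.00258), and DPP4 more in MKN7 than in Hs746T cells (1.93 ± 0.533, adjusted p = 0.00495). The larger ZG16 and DPP4 changes of MKN7 over MKN1 cells did not pass (-1.99 ± 0.734 with adjusted p = 0.0835, and -1.28 ± 0.516 with adjusted p = 0.124, MKN1 minus MKN7). With the replicate number within each line and time as a block, an alternative chosen after seeing the data, both passed (-2.15 ± 0.608 with adjusted p = 0.0046, and -1.29 ± 0.139 with adjusted p = 1.33e-12). Without replicate 2 only the AOC1 difference between NCI-N87 and Hs746T cells among these 5 was called: the adjusted p was 0.157 for AOC1 in MKN7 minus NCI-N87, 0.104 for AOC1 in MKN1 minus Hs746T, 0.0844 for LGALS4 and 0.0574 for DPP4. The AOC1 difference between MKN1 and Hs746T cells was also not called without replicate 3 (0.272).

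The number of members called was 0 of 8 for MKN1 minus MKN7 by edgeR (7.61% of all genes), where 3 had an unadjusted p below 0.05, and DESeq2 was not run on this contrast. It was 1 of 8 in each of the other pairs: MKN1 minus NCI-N87 (28% of genes), MKN1 minus Hs746T (4.41%), MKN7 minus NCI-N87 (21.4%), MKN7 minus Hs746T (18.8%) and NCI-N87 minus Hs746T (35.1%). The block within each line and time called 3 members for MKN1 minus MKN7, 3 for MKN1 minus NCI-N87, 2 for MKN1 minus Hs746T, 3 for MKN7 minus NCI-N87, 2 for MKN7 minus Hs746T and 2 for NCI-N87 minus Hs746T. AOC1 was called in all 6 pairs in that fit, among them MKN7 minus Hs746T (1.34 ± 0.296, adjusted p = 0.000113), and LGALS4 also for MKN7 minus NCI-N87 (-1.0 ± 0.359, adjusted p = 0.0195). The share of all genes called in that fit is not given here, so these counts have no background beside them.

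**Figure D3:**
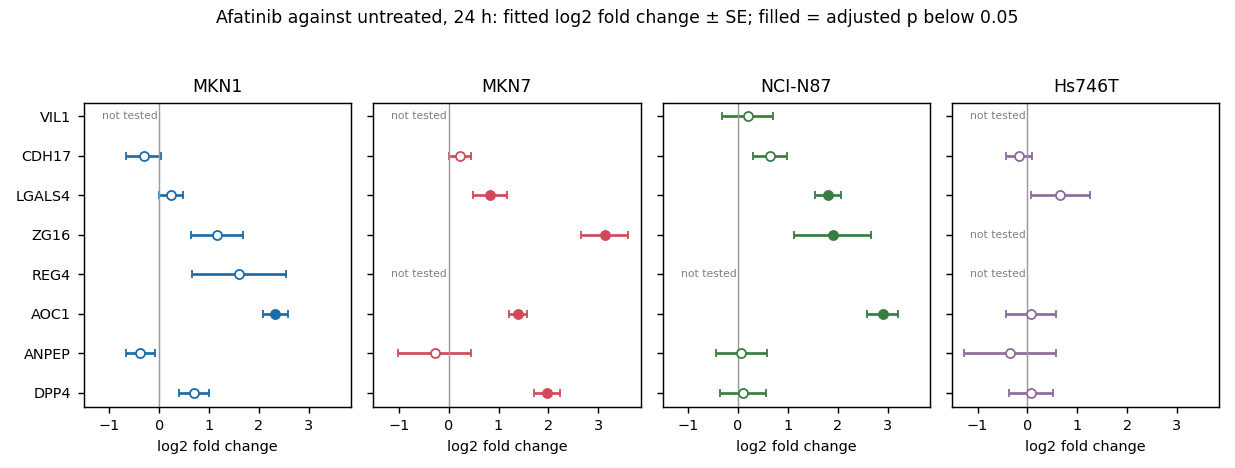
Fitted log2 change of each member after 24 h of afatinib against untreated cells of the same line, with SE bars, filled where the adjusted p was below 0.05 and marked where the member was not tested. AOC1 lies at 2.90 in NCI-N87, 2.33 in MKN1 and 1.39 in MKN7 cells and near 0 in Hs746T cells, and ZG16 in MKN7 cells, at 3.13, is the largest change shown.

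In MKN1 cells EGF and its blockade were tested in the presence of serum. At 24 h EGF moved members in both directions, with 3 of 7 called (1 up and 2 down) beside 35.8% of all genes. ANPEP rose from 60.8, 42.1 and 64.7 CPM to 181, 133 and 154 CPM (log2 change 1.5 ± 0.297, adjusted p = 0.000157). AOC1 fell from 3.52, 2.75 and 2.0 CPM to 0.768, 1.26 and 0.923 CPM (-1.47 ± 0.274, adjusted p = 7.69e-05). LGALS4 fell from 0.902, 1.04 and 0.924 CPM to 0.373, 0.428 and 0.500 CPM (-1.12 ± 0.264, adjusted p = 0.00118). None of these groups overlapped, and the share of all genes without overlap was not computed. With the replicate block 5 members were called, the additions being DPP4 (-0.35 ± 0.0663, adjusted p = 5.07e-05, range over the alternatives 5.07e-05 to 0.782) and REG4 at very low counts (adjusted p = 0.0206, range 0.0206 to 0.374). That fit called 10122 of 19815 genes. Scaled by library size alone, the median log2 change of all genes in this comparison was -0.24.

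Adding cetuximab to EGF left AOC1 and LGALS4 below the untreated level at 24 h. EGF + cetuximab gave AOC1 at 1.25, 1.18 and 1.21 CPM (log2 change against untreated -1.18 ± 0.266, adjusted p = 0.00179) and LGALS4 at 0.304, 0.608 and 0.550 CPM (-0.97 ± 0.258, adjusted p = 0.00732), so 2 of 7 members were called beside 18.6% of all genes. Without replicate 1 the count was 0. With the replicate block 4 were called, with ANPEP at 0.75 ± 0.0765 (adjusted p = 4.42e-09, range over the alternatives 4.42e-09 to 0.253) and DPP4 at -0.29 ± 0.0659 (adjusted p = 0.000655, range 0.000655 to 0.921). That fit called 7220 of 19815 genes. Against EGF alone, 0 of 7 members were called by edgeR or DESeq2 (0.646% of genes), with 1 at an unadjusted p below 0.05. That member was ANPEP, which read 109, 74.3 and 97.3 CPM with EGF + cetuximab, lower than each EGF library, and it was called with the replicate block (-0.77 ± 0.0755, adjusted p = 1.72e-08, range 1.72e-08 to 0.632). Here the block called 1430 of 19815 genes.

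Cetuximab alone gave AOC1 at 10.0, 7.81 and 11.0 CPM at 24 h, above every untreated library (log2 change 1.78 ± 0.242, adjusted p = 2.62e-05), the 1 call of 7 members beside 10.8% of all genes. The EGF, EGF + cetuximab, cetuximab and afatinib comparisons share the same 3 untreated libraries. Across genes, deviations from the condition mean correlated at only 0.228, 0.0161 and 0.248 between cetuximab and untreated libraries of the same replicate number. The reason was not tested. DPP4 read 36.4, 32.1 and 50.2 CPM with cetuximab and 26.5, 21.6 and 32.0 CPM untreated, and did not pass (0.55 ± 0.306, adjusted p = 0.262). ANPEP at 56.9, 33.3 and 43.0 CPM and LGALS4 at 0.691, 1.24 and 1.15 CPM overlapped their controls. REG4 had 9, 5 and 20 counts against 2, 4 and 1 untreated (2.09 ± 0.898, adjusted p = 0.134).

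The kinase inhibitor and the antibody against EGFR were set against each other in MKN1 cells at 24 h. AOC1 was higher after afatinib in each library, at 12.1, 13.6 and 16.5 CPM, with a log2 difference of 0.55 ± 0.226 that did not pass (adjusted p = 0.606). By edgeR 0 of 7 members were called (0.0757% of genes), 1 had an unadjusted p below 0.05, and DESeq2 and the replicate block called 0. DPP4 and ANPEP differed by 0.14 ± 0.304 and -0.04 ± 0.293 on the log2 scale. The drugs were given at 1 dose each, in different units, so this sets 2 treatments side by side and does not match doses.

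At 4 h in MKN1 cells, 0 of 63 member tests in 9 treatment comparisons were called by edgeR, 0 by DESeq2 and 6 with the replicate block, and 2 had an unadjusted p below 0.05. ANPEP after EGF read 343, 209 and 240 CPM against 214, 124 and 151 CPM untreated, higher in each numbered pair. It did not pass without the block (0.71 ± 0.29, adjusted p = 0.17, beside 6.82% of all genes called) and was called with it (0.71 ± 0.0749, adjusted p = 5.51e-09, range over the alternatives 5.51e-09 to 0.587). All 6 calls with the block were of ANPEP. The others were 0.355 ± 0.0747 for EGF + cetuximab (adjusted p = 0.00263), -0.36 ± 0.0744 for EGF + cetuximab against EGF (0.00226), -0.28 ± 0.0749 for trastuzumab + afatinib against untreated (0.00993) and -0.27 ± 0.0749 against trastuzumab (0.0165), beside the afatinib value given above. Of all 19815 genes the block called 3368 for EGF at 4 h, 2618 for afatinib and 2159 for trastuzumab + afatinib against trastuzumab. AOC1 and LGALS4, which fell at 24 h, read 1.74, 2.62 and 2.23 CPM and 0.248, 0.335 and 0.318 CPM after 4 h of EGF.

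**Figure D4:**
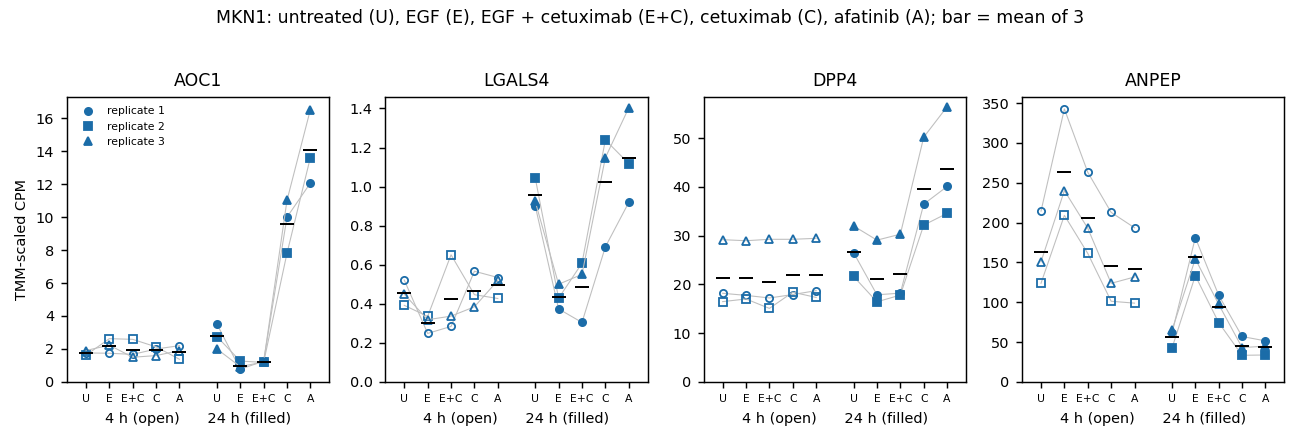
CPM of AOC1, LGALS4, DPP4 and ANPEP in each MKN1 library left untreated (U) or given EGF (E), EGF + cetuximab (E+C), cetuximab (C) or afatinib (A), at 4 h and 24 h, axes from 0, with bars at the means of 3 libraries. At 24 h AOC1 was lowest with EGF (0.768 to 1.26 CPM) and highest with afatinib (12.1 to 16.5 CPM), whereas ANPEP was highest with EGF (133 to 181 CPM).

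Members also differed between untreated cells taken at 24 h and at 4 h. The paper reports a medium change before treatment, so time in culture and time since fresh medium cannot be told apart. In MKN1 cells ANPEP fell from 214, 124 and 151 CPM at 4 h to 60.8, 42.1 and 64.7 CPM at 24 h (log2 change -1.57 ± 0.297, adjusted p = 9.56e-05), and LGALS4 rose from 0.521, 0.392 and 0.449 CPM to 0.902, 1.04 and 0.924 CPM (1.04 ± 0.266, adjusted p = 0.00247, and 0.0502 without replicate 2). These were 2 of 7 members beside 34.1% of all genes, and 5 with the replicate block, which added CDH17 (0.95 ± 0.324, adjusted p = 0.0157, range over the alternatives 0.0157 to 0.296), AOC1 (0.64 ± 0.266) and DPP4 (0.34 ± 0.075). The block called 9356 of 19815 genes there. In MKN7 cells CDH17 rose from 1.03, 0.906 and 1.03 CPM to 2.01, 1.45 and 1.43 CPM (0.69 ± 0.231, adjusted p = 0.0438), 1 of 6 members beside 16.4% of genes, and this call was lost without any 1 of the replicates. The block added LGALS4 there (1.01 ± 0.331, adjusted p = 0.0232, range 0.0232 to 0.49), and its share of all genes is not given here. In NCI-N87 cells 0 of 7 members (0.267% of genes) and in Hs746T cells 0 of 5 (1.48%) were called by edgeR or DESeq2, with 0 and 1 at an unadjusted p below 0.05. In Hs746T cells the block called CDH17 (0.77 ± 0.168), beside 1902 of 18667 genes. That block does not cover a change in the series of sample numbers for replicate 2, given under the processing.

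The other genes of the intestinal program were read from lists chosen for this tissue, of which up to 3 genes each are named. The counts that follow stand beside 25.6% of all genes called in MKN1, 51.6% in MKN7 and 62.5% in NCI-N87 cells after 24 h of afatinib, and 35.8% after EGF in MKN1 cells. Among 11 further brush border enzymes, 5 of 8 tested rose and none fell after 24 h of afatinib in MKN1, 6 of 8 rose in MKN7 and 3 of 6 rose in NCI-N87 cells, with median log2 changes of 1.03, 1.15 and 0.55 beside 0.01, 0.04 and 0.03 over all genes. In MKN1 cells the peptidases MME and ENPEP rose by 1.17 ± 0.339 and 0.88 ± 0.172. ENPEP rose by 1.1 ± 0.128 in MKN7 cells. The starch-digesting MGAM rose by 1.96 ± 0.395 in NCI-N87 cells. With EGF in MKN1 cells, 4 of 8 of these enzymes fell and 1 rose, with ENPEP at -1.06 ± 0.189 and MGAM at 0.87 ± 0.132.

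The 3 of 6 enzymes in NCI-N87 cells lay below that share. Of 10 goblet cell genes, 5 were tested in each of these lines, and afatinib raised 1, 2 and 3 in MKN1, MKN7 and NCI-N87 cells while 1 fell in MKN1 cells, which in MKN7 and NCI-N87 cells was no more than the share over all genes. SPINK4, a small protein of goblet cells, rose by 2.09 ± 0.209 in MKN7 and 1.37 ± 0.19 in NCI-N87 cells. Brush border cytoskeleton genes went both ways: 0 rose and 2 fell of 9 tested in MKN1, 2 rose and 1 fell of 8 in MKN7, and 4 rose and 1 fell of 10 in NCI-N87 cells. There the microvillus bundler ESPN rose by 1.61 ± 0.166, the scaffold USH1C rose by 1.14 ± 0.101 and EZR, which ties actin to the membrane, was at -1.14 ± 0.111. Of 15 absorptive transport and lipid genes, 0 rose and 1 fell of 8 tested in MKN1, 0 rose and 2 fell of 5 in MKN7, and 2 rose and 2 fell of 7 in NCI-N87 cells. Intestinal surface markers split as 1 up and 0 down of 4, 2 up and 1 down of 5, and 4 up and 3 down of 7, with KRT20 and MUC13 among those that fell in NCI-N87 cells (-0.99 ± 0.16 and -1.45 ± 0.264).

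CDX2 was among the intestinal transcription factors that rose with afatinib in 3 lines, by 0.59 ± 0.112 in MKN1, 1.06 ± 0.222 in MKN7 and 1.48 ± 0.224 in NCI-N87 cells. The list as a whole gave 2 up and 1 down of 8 tested, 2 up and 1 down of 7, and 3 up and 2 down of 9, near the shares over all genes. GATA6 fell by 0.87 on the log2 scale in MKN1 cells and rose by 1.21 ± 0.2 in MKN7 cells. Gastric genes gave 2 up and 0 down of 10, 2 up and 4 down of 9, and 4 up and 3 down of 11. Among them MUC5AC, the main surface mucin of the stomach, was at -3.45 ± 0.335 and CTSE at -3.70 ± 0.24 in NCI-N87 cells, while PSCA rose by 2.98 ± 0.688.

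Of 7 genes that are known to report ERK signalling, all 6 tested fell with afatinib in MKN1, MKN7 and NCI-N87 cells, with medians of -3.51, -4.15 and -4.79, while 0 of 7 moved in Hs746T cells (median -0.08). With EGF in MKN1 cells 4 of 6 rose, with a median of 1.27, and with cetuximab all 6 fell, with a median of -2.23. Markers of other cell states moved as well. The summed epithelial genes ran from 18990 to 22150 CPM in untreated and from 11130 to 13560 CPM in afatinib libraries of NCI-N87 cells at 24 h, with 4 up and 3 down of 11. In MKN7 cells the ranges were 6561 to 7651 and 4986 to 5840 CPM (3 up and 6 down of 11), and in MKN1 cells 17090 to 18070 and 14870 to 17820 CPM (3 up and 1 down of 11). Over all libraries of these lines the keratins named above carry most of this sum.

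Mesenchymal genes summed to 265.7 to 317 CPM in untreated and 122.9 to 164 CPM in afatinib libraries of NCI-N87 cells (1 up and 3 down of 9), to 514.9 to 785.8 and 771.7 to 1032 CPM in MKN7 cells (3 up and 0 down of 9) and to 1856 to 2210 and 1910 to 2484 CPM in MKN1 cells (2 up and 0 down of 9). With EGF in MKN1 cells they summed to 2477 to 3241 CPM (3 up and 1 down of 9), with VIM up by 1.73 ± 0.212. The epithelial genes then split as 1 up and 6 down of 11, with a sum of 17530 to 23830 CPM beside 17090 to 18070 CPM untreated. Of 5 haematopoietic genes, 2 were tested in each line, and 1 rose with afatinib in MKN1 (CD14, 0.56 ± 0.139) and 1 in MKN7 cells. Their sum stayed at 9.31 CPM or below in these conditions. The part of these marker genes in the members' changes was not tested.

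Members with a mean of at least 1 CPM in a line were also compared over its condition means. Over the 8 means of MKN7 cells, log2 CPM of AOC1 correlated with DPP4 at Pearson r = 0.993 and with ZG16 at 0.961, and ZG16 with DPP4 at 0.962. CDH17, which was not called after afatinib there, correlated with these 3 genes at 0.683 to 0.832. Over the 14 means of MKN1 cells, AOC1 and DPP4 correlated at 0.972, while ANPEP ran against both, at -0.783 with AOC1 and -0.870 with DPP4. In Hs746T cells AOC1 and DPP4 correlated at 0.193 over 14 means, and in NCI-N87 cells AOC1 and VIL1 at -0.160 over 8. The means of a line share its cells, its time points and the treatments compared above, so the values are descriptions.

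Among genes with a mean of at least 1 CPM, those whose log2 CPM most resembled a member over all 44 condition means were GAA (r = 0.979), CCDC162P (0.976) and AC099489.1 (0.974) for AOC1, and GREM1 (0.997), NUDT11 (0.995) and MYH13 (0.995) for ANPEP. For DPP4 they were FBXO6 (0.987), NLRP1 (0.984) and PRUNE2 (0.974), for ZG16 AC005586.2 (0.983), IGDCC3 (0.975) and HIST1H3J (0.962), for VIL1 LINC01484 (0.992), AC004990.1 (0.990) and KIAA0825 (0.989), and for CDH17 ARHGAP5-AS1 (0.942), ANO10 (0.942) and AC099343.3 (0.935). The 44 means come from 4 lines and share their controls within a line.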

How the data were processed

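Poly(A) RNA of 132 libraries had been sequenced by the authors from a directional kit. The submitters' processing notes name Trim Galore, STAR and the hg38 build without versions. The files deposited by the authors hold raw counts per Ensembl gene, 1 file a library, not normalized. Whether counting used strand is not given in the sources used here. Symbols and positions came from GENCODE 29 (GRCh38), and 8404 identifiers absent from it held 0.0422% of the counts.

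Counts were tested in R 4.3.3 with edgeR 4.0.16: TMM scaling, filterByExpr, the quasi-likelihood F test and Benjamini-Hochberg adjustment over all genes of a fit, with calls at an adjusted p below 0.05. Each line was fitted with all of its libraries and 1 mean per condition. The 24 untreated libraries were fitted together for differences between lines, and all 132 for differences in the afatinib response. Levels are CPM of the library total scaled by TMM, and differences are log2 fold changes with SE. Tests were also run on simulated data. The alternatives were DESeq2 1.42.0, library size alone, no filter on low counts, a minimum of 10 counts in every library, a fit of the 2 conditions alone, a replicate block, each replicate number left out, and a log2 fold limit of 1. Depth bounds the precision: 3 counts were taken as the floor, and floors and intervals cover counting error only.

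No replicate libraries were identical (0 pairs), and replicates differed by more than sampling noise. Libraries with the same replicate number deviated together within a line (every correlation above 0.1), except in some MKN1 comparisons at 24 h, and not between lines. In MKN1 cells at 24 h, cetuximab and trastuzumab + afatinib failed this with every other condition but met it with each other (0.692, 0.668 and 0.76). The blocked value is therefore given beside the within-line results described where it changes a call, and differences in the afatinib response were also fitted with a block within each line and time, chosen after seeing the data. The numbers in the sample descriptions run in 2 series, of 65 and 67 libraries. All treatments of a line, time and replicate number share a series, so the block covers it for treatments within a line and time. Replicate 2 of Hs746T is in series 1 at 4 h and in series 2 at 24 h, so the block for time does not cover it. Untreated replicate 2 is in series 1 for MKN1 and in series 2 for MKN7 cells, so a block by number alone does not cover it between lines. No batch is named.

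Members that passed the filter are counted in every comparison given, with values for those called or described. Trastuzumab + afatinib was also fitted against untreated cells, which is described here for 4 h in MKN1 and for Hs746T cells alone. Of each list the 3 called genes with the largest change and a mean above 1 CPM are named at most (1 gene that this rule names is not reported here), and of each member the 3 most similar genes over 44 condition means (Pearson r of log2 CPM with 0.5 added). The members, lists and tests were chosen with earlier results of these data known, so AOC1 after cetuximab in MKN1 cells and ZG16 in MKN7 cells, which were already known, are no independent support.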

Additional observations from a re-analysis of the deposited data

Results flagged for a closer look

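The afatinib response at 24 h (log2 change against untreated cells) differed between lines for 5 pairs of member and lines by an interaction test in edgeR, adjusted over all genes. For AOC1 the difference was 2.24 ± 0.499 (SE) for MKN1 minus Hs746T (adjusted p = 0.00217), 2.83 ± 0.483 for NCI-N87 minus Hs746T (7.51e-07) and -1.53 ± 0.439 for MKN7 minus NCI-N87 (0.0057). For LGALS4 it was -1.58 ± 0.43 for MKN1 minus NCI-N87 (0.00258), and for DPP4 1.93 ± 0.533 for MKN7 minus Hs746T (0.00495). Each direction was the same in every alternative run, but the calls were not. Without replicate 2 only AOC1 for NCI-N87 minus Hs746T was still called, the others having an adjusted p of 0.0574 to 0.157. Without replicate 3 AOC1 for MKN1 minus Hs746T was not called (0.272). Groups held 3 libraries each, too few for a search for single outlying libraries.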

How the results depend on the processing

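No log2 change of a member that was called changed its direction under any alternative run. Of 65 such changes, 65 remained called with the replicate block, 64 with library size alone and 62 with no filter on low counts. Without replicate 1, 2 or 3, 56, 50 and 57 did. DESeq2 (25 changes compared) and a fit of the 2 conditions alone (23) were run within lines, where 23 and 18 remained called. Library size alone moved the median log2 change of all genes to between -0.24 (EGF, MKN1, 24 h) and 0.32 (trastuzumab + afatinib against trastuzumab, NCI-N87), with members named above keeping their direction.

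The replicate block, which pairs libraries by number, called 1 member after afatinib at 4 h in MKN1, 3 after afatinib at 24 h in MKN1, 1 after EGF at 4 h and 5 at 24 h, 4 after EGF + cetuximab, 1 for EGF + cetuximab against EGF, and 5, 2 and 1 for 24 h against 4 h in MKN1, MKN7 and Hs746T. For trastuzumab + afatinib against trastuzumab at 4 h it called 1 in MKN1 and 2 in NCI-N87. Where the numbers did not pair samples, it called 4 members for cetuximab and 4 for trastuzumab + afatinib against trastuzumab in MKN1 at 24 h. More of all genes were called there as well, 6017 and 9005 of 19815. For the afatinib response, 1 number shared by all lines as a block called 1 member for MKN1 minus MKN7 and 2 for MKN7 minus NCI-N87. The block within each line and time, which fits the pairing found, called 3 for MKN1 minus MKN7, 3 for MKN1 minus NCI-N87, 2 for MKN1 minus Hs746T, 3 for MKN7 minus NCI-N87, 2 for MKN7 minus Hs746T and 2 for NCI-N87 minus Hs746T, and kept the 5 differences called without it.

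LGALS4 after 4 h of afatinib in NCI-N87 gave 0 calls with DESeq2, no filter, the 2 conditions alone or a log2 limit of 1, and a range of 0 to 0 with a replicate left out. With trastuzumab + afatinib against trastuzumab at 4 h in NCI-N87 it gave 0 with the 2 conditions alone or a log2 limit of 1, and 0 to 1 with a replicate left out. The 2 conditions alone gave 2 calls for afatinib in MKN1 at 24 h. A log2 limit of 1 left 1 call for EGF + cetuximab, 1 for trastuzumab + afatinib against trastuzumab in MKN1 and 0 for 24 h against 4 h in MKN7. For trastuzumab + afatinib in MKN1, library size alone and no filter each left 1, as did the minimum of 10 counts, under which CDH17 was not tested. Library size alone gave 5 calls for 24 h against 4 h in MKN1, 2 for the response of MKN7 minus Hs746T and 2 for NCI-N87 minus Hs746T, where no filter also gave 2. The minimum of 10 counts, which tests fewer genes, left 2, 2, 1, 2, 2 and 2 calls between untreated lines (MKN1 against MKN7, NCI-N87 and Hs746T, MKN7 against NCI-N87 and Hs746T, NCI-N87 against Hs746T) and 0 for the response of MKN1 minus NCI-N87. All 37 called changes that this setting still tested remained called, so its lower counts reflect members left untested.

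With 1 replicate number left out, counts ranged from 1 to 2 for afatinib and from 1 to 2 for cetuximab in MKN1 at 24 h, from 0 to 3 for EGF + cetuximab, from 2 to 4 for 24 h against 4 h in MKN1 and from 0 to 0 in MKN7. For the response they ranged from 0 to 2 for MKN7 minus Hs746T and from 0 to 1 for MKN1 minus MKN7, MKN1 minus NCI-N87, MKN1 minus Hs746T and MKN7 minus NCI-N87. The cause of these changes was not tested, other than the fewer genes or libraries named. Differences in response were recomputed at 24 h, not at 4 h.

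Members under 1 CPM rest on few counts. FABP1, SI and, outside MKN1 cells, REG4 were too low for the filter within lines, and FABP1 was called after 24 h of afatinib in NCI-N87 (adjusted p = 0.0242) and for the response of NCI-N87 minus Hs746T (0.0207) with no filter.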
